A study of Mus musculus with 8 samples.

Results

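Transcripts of 10 genes of the neuromuscular junction and of muscle atrophy were followed in mouse paw tissue: 4 subunits of the muscle acetylcholine receptor (Chrna1, Chrnb1, Chrnd, Chrne), the synaptic kinase Musk, the muscle transcription factors Myog and Myod1, the ubiquitin ligases Fbxo32 and Trim63, and the growth inhibitor Mstn. They were chosen by gene symbol, and all 10 were found among the 22609 symbols listed. RNA was sequenced in 8 libraries of the inbred strain C57BL/6J, 4 from males and 4 from females. Every library is labelled as coming from a mouse given 0.1 µg of prolactin, the pituitary hormone of lactation, into the paw once a day for 12 days. The labels thus set the groups apart by sex alone, and no library of a mouse without prolactin was analysed here. Neither age nor whether each library came from its own mouse is given in the sources used here, so p-values measure the spread between these libraries. Levels are CPM, counts per 1000000 counts of the library after TMM scaling, and each gene is also given per 1000 counts of Acta1, the actin gene of skeletal muscle fibres.

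At the neuromuscular junction, a motor nerve ending releases acetylcholine onto receptors packed in the membrane of the muscle fibre. The adult receptor is built from alpha, beta, delta and epsilon subunits, and Musk is the receptor kinase that gathers them under the nerve ending. Myod1 and myogenin (Myog) are basic helix-loop-helix factors that bind the E-box, a short DNA motif, and switch on muscle genes, the receptor genes among them. Trim63 (MuRF1) and Fbxo32 (atrogin-1) mark muscle proteins for breakdown and are the classic transcripts of wasting muscle. Mstn encodes myostatin, a secreted factor that limits muscle growth.

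Counts in genes ran from 16753528 to 24993744 per library. The muscle content of the libraries varied far more than their depth. Acta1 stood at 814, 4281, 902 and 149 CPM in male replicates 1 to 4 and at 2654, 474, 3.97 and 899 CPM in female replicates 1 to 4. Female replicate 3 thus held 90 Acta1 counts where the other 7 libraries held 3051 to 80045. Ckm, the muscle creatine kinase gene, stood at 1.50 CPM there and at 82.2 to 2500 CPM elsewhere. Summed keratinocyte markers in female replicate 3 (45256 CPM) lay within the range of the others (30191 to 54005 CPM), as did summed Schwann cell markers (245 CPM against 191 to 447 CPM). Summed fibroblast markers were lower there (2536 CPM) than in every other library (2733 to 5515 CPM), and their part in the results was not tested. In bulk tissue, fewer muscle fibres and less RNA per fibre cannot be told apart. Results that rest on female replicate 3 are given with and without it.

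The 4 receptor subunits rose and fell with Acta1 from library to library. Chrna1, the alpha subunit that carries most of the acetylcholine binding site, stood at 14.6, 71.4, 20.8 and 2.79 CPM in males and at 56.1, 9.28, 0.486 and 15.8 CPM in females, replicates 1 to 4. Male replicate 2 and female replicate 1 were high, male replicate 4 and female replicate 3 low, and the sexes overlapped. Chrne, the epsilon subunit that replaces the fetal gamma subunit in adult muscle, stood at 5.42, 23.7, 6.49 and 1.18 CPM in males and at 22.6, 3.37, 0.265 and 5.75 CPM in females. The order of the libraries was close to that of Chrna1, and the sexes again overlapped.

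Chrnb1, the beta subunit, ran from 3.48 to 54.1 CPM outside female replicate 3, which had 34 counts. Its CPM there was 12.5% of the median of the other 7 libraries, where Chrna1 stood at 3.08% and Chrne at 4.61% of theirs and Acta1 at 0.442%. Chrnd, the delta subunit, stood at 1.69, 7.17, 2.29 and 0.196 CPM in males and at 7.07, 1.20, 0 and 1.97 CPM in females. Its 0 counts in female replicate 3 allow up to 0.132 CPM (3 counts, counting error only), a level below the 0.196 CPM of male replicate 4. Chrng, the fetal gamma subunit that denervated fibres make again, had 0 to 35 counts per library and was too low to be tested.

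**Figure D1:**
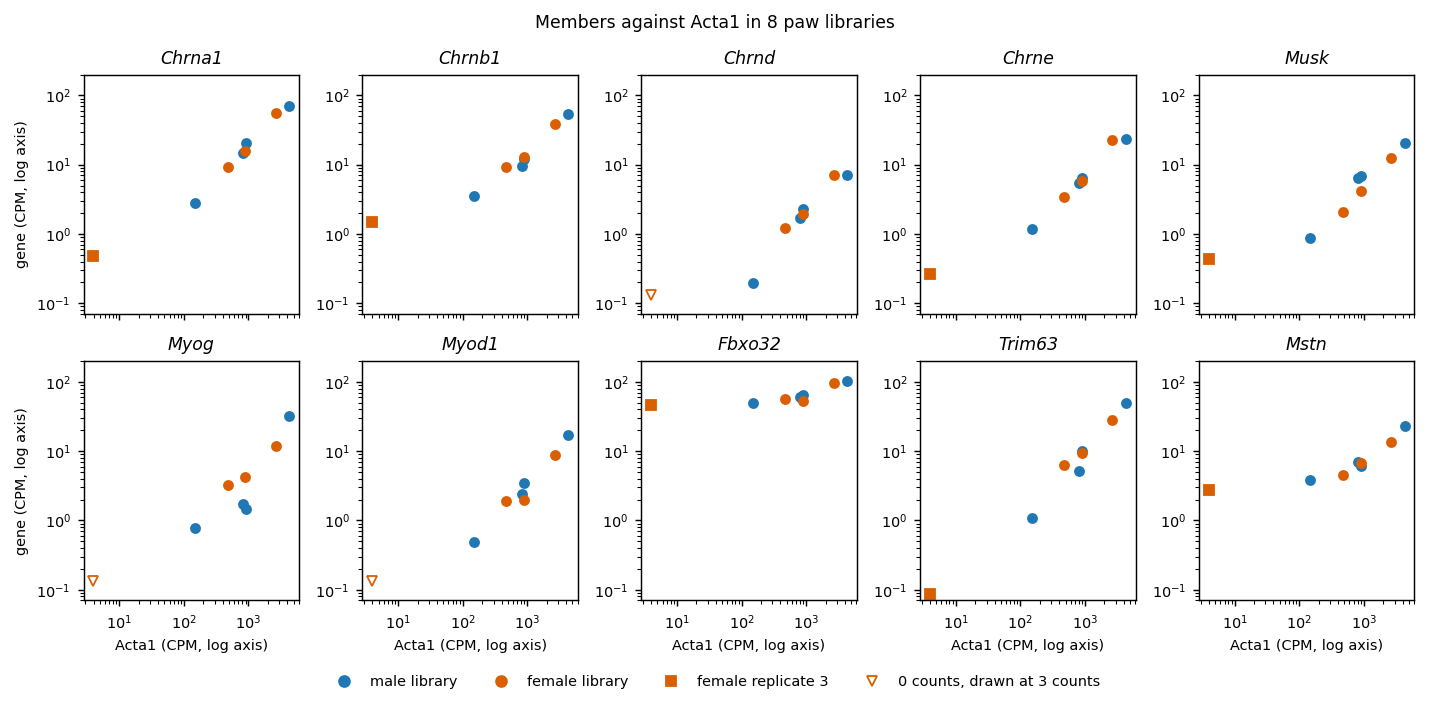
Level of each of the 10 genes (CPM, log axis) against Acta1 (CPM, log axis), 1 point per library, males in blue and females in orange, with female replicate 3 as a square and counts of 0 drawn as open triangles at 3 counts. Most genes climb with Acta1 across its range from 3.97 to 4281 CPM, while Fbxo32 stays between 46.6 and 103 CPM.

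Musk, whose kinase activity starts the clustering of receptors, had nearly the same order of libraries, with male replicate 1 above female replicate 4 where Chrna1 and Chrne had the reverse. It stood at 6.47, 20.4, 6.82 and 0.882 CPM in males and at 12.4, 2.08, 0.441 and 4.16 CPM in females. Male replicate 2 was highest and female replicate 3 lowest, and the sexes overlapped.

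The 2 muscle transcription factors were absent from the counts of female replicate 3 and high in male replicate 2. Myog stood at 1.74, 31.7, 1.47 and 0.784 CPM in males and at 11.9, 3.28, 0 and 4.24 CPM in females. Myod1 stood at 2.39, 17.3, 3.49 and 0.490 CPM in males and at 8.84, 1.89, 0 and 2.01 CPM in females. Their proportion to each other was not fixed: Myog had 2.12 times the counts of Myod1 in female replicate 4, 1.83 times in male replicate 2, and 0.422 and 0.729 times in male replicates 3 and 1. Those 2 male libraries carried about as much Acta1 as female replicate 4 (902 and 814 against 899 CPM). Their Myog stood at 1.47 and 1.74 against 4.24 CPM, from 27 and 35 against 110 counts.

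The 2 ubiquitin ligases parted ways. Trim63 stood at 5.17, 49.5, 10.04 and 1.08 CPM in males and at 28.1, 6.37, 0.0883 and 9.29 CPM in females, a course like that of Acta1. Fbxo32 stood at 60.1, 103, 65.0 and 49.1 CPM in males and at 97.9, 56.4, 46.6 and 53.3 CPM in females. In female replicate 3 Fbxo32 kept 77.6% of the median of the other libraries, with 1056 counts, whereas Trim63 kept 0.950%, with 2 counts. Trim63 had 0.482 times the counts of Fbxo32 in male replicate 2, 0.0219 times in male replicate 4 and 0.00189 times in female replicate 3. Fbxo32 shares exon sequence with a gene on the opposite strand (Gm15943) in the GENCODE M21 annotation of GRCm38, and the strand setting of the authors' counting is not given in the sources used here.

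Mstn lay between these courses. It stood at 6.97, 23.2, 6.11 and 3.82 CPM in males and at 13.6, 4.57, 2.74 and 6.79 CPM in females. Female replicate 3 kept 40.3% of the median of the other libraries, with 62 counts. Between the richest and the poorest male library, male replicates 2 and 4, Mstn differed 6.08-fold and Fbxo32 2.09-fold, while Acta1 differed 28.6-fold. Over the same 2 libraries Chrnb1 differed 15.6-fold, Chrne 20.2-fold, Musk 23.1-fold, Chrna1 25.6-fold, Myod1 35.4-fold, Chrnd 36.6-fold, Myog 40.5-fold and Trim63 46.0-fold. These are ratios of single libraries and carry no test.

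To put the course of each gene into 1 number, edgeR was fitted across all genes with sex and log2 Acta1 as terms. The slope is the log2 change of a gene per log2 unit of Acta1, and a slope of 1 means a constant ratio to Acta1. Slopes above 0 were called for 8 of the 10 genes (edgeR, adjusted p under 0.05), against 2.85% of the 14789 genes tested. Chrnd (slope 1.01, SE 0.07, adjusted p = 6.25e-05), Trim63 (1.03, SE 0.06, 2.97e-05), Myod1 (1.05, SE 0.07, 3.82e-05) and Myog (1.12, SE 0.13, 0.00277) lay within 1 SE of 1. Chrna1 (0.83, SE 0.06, 0.000128), Chrne (0.78, SE 0.07, 0.000276), Musk (0.61, SE 0.09, 0.0103) and Chrnb1 (0.56, SE 0.07, 0.00527) rose less steeply. Mstn (0.28, SE 0.07, adjusted p = 0.0718) and Fbxo32 (0.11, SE 0.03, adjusted p = 0.122) were not called. Over these genes the median slope was 0.80, and over all genes tested it was 0.00.

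Several of the shallower slopes moved when female replicate 3 was left out. Without it all 10 slopes were called, against 6.24% of the 14942 genes then tested. Those of Chrna1 (0.99, SE 0.05), Chrne (0.95, SE 0.06) and Musk (0.93, SE 0.07) were then close to 1, and those of Chrnb1 (0.84, SE 0.06), Mstn (0.56, SE 0.07, adjusted p = 0.00201) and Fbxo32 (0.25, SE 0.04, adjusted p = 0.0154) were larger than with all libraries. Musk lost its call without female replicate 1 (slope 0.56, adjusted p = 0.0784), and Mstn gained one without female replicate 2 (0.29, adjusted p = 0.0356). Against a slope of 1, a test added after the data were seen, 5 genes differed with all libraries in edgeR (Fbxo32, Mstn, Chrnb1, Musk and Chrne). Without female replicate 3, 3 did: Fbxo32 (adjusted p = 5.7e-07), Mstn (0.000315) and Chrnb1 (0.0234). The same test called 98.9% of all genes with every library and 97.8% without female replicate 3, so a difference from 1 is the usual case for a gene of the paw. Missing that threshold does not show that a slope equals 1.

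**Figure D2:**
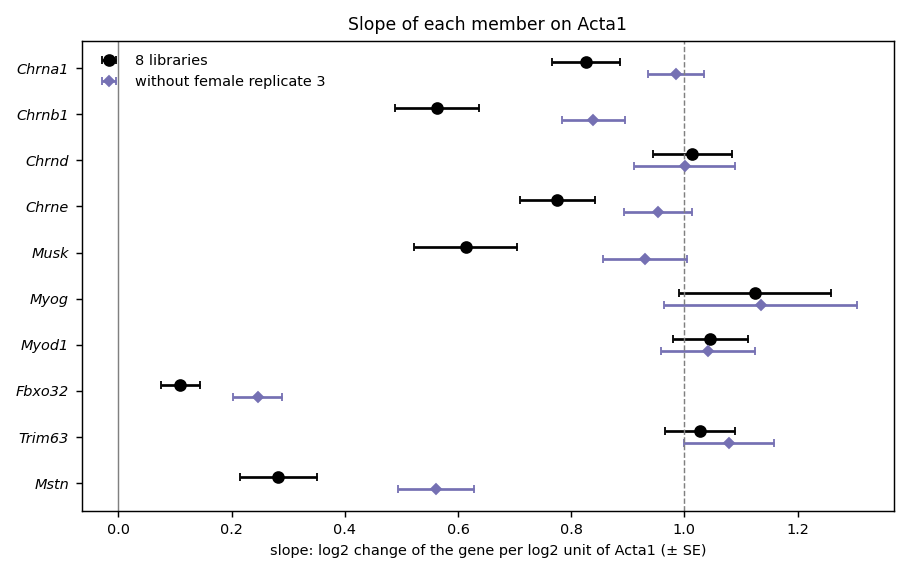
Slope of each gene on Acta1 (log2 per log2, horizontal axis) with its SE as bars, for 8 libraries (black circles) and without female replicate 3 (violet diamonds). Chrnd, Myog, Myod1 and Trim63 sit near the dashed line at 1 in both cases, Fbxo32 is nearest to 0, and Chrna1, Chrne and Musk move towards 1 when that library is left out.

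Proportions between receptor subunits were steadier than their levels. Chrna1 had 2.70, 3.01, 3.20 and 2.38 times the counts of Chrne in male replicates 1 to 4 and 2.48, 2.75 and 2.74 times in female replicates 1, 2 and 4. The highest of these 7 ratios was 1.35 times the lowest, over a 28.6-fold range of Acta1. Chrnb1 had 1.71 to 2.96 times the counts of Chrne in those libraries and 5.67 times in female replicate 3. The other subunit pairs that were computed were less steady. Their highest ratio was 1.73 times the lowest for Chrnb1 over Chrne, 1.84 for Chrna1 over Chrnd, 2.14 for Chrnd over Chrne and 2.16 for Chrna1 over Chrnb1. Outside pairs of subunits it was 2.14 times for Trim63 over Myod1 and 2.18 for Musk over Chrne. For Myog over Myod1 it was 5.01 times, for Chrna1 over Myog 6.26 and for Trim63 over Fbxo32 22.0. The ratio of Chrnb1 to Chrnd was not computed, and its counts spread more widely than those of the subunit pairs above. Chrnb1 had 220 counts to 42 of Chrnd in male replicate 3, and 71 to 4 in male replicate 4. These ratios are of raw counts of genes of different length and are a description with no test.

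**Figure D3:**
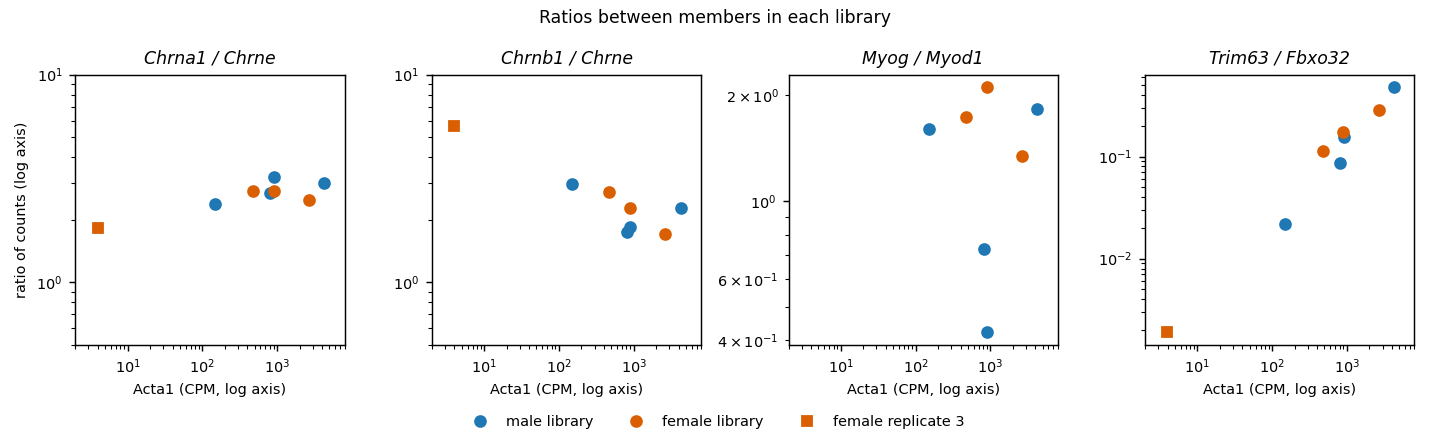
Ratio of the counts of 2 genes in each library (log axis) against Acta1 (CPM, log axis), males in blue, females in orange, female replicate 3 as a square (missing where the lower gene has 0 counts). Chrna1 over Chrne stays between 1.83 and 3.20, Chrnb1 over Chrne is highest (5.67) in female replicate 3, Myog over Myod1 spreads from 0.422 to 2.12, and Trim63 over Fbxo32 climbs from 0.00189 to 0.482.

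Per kilobase of annotated exon (GENCODE M21, GRCm38; the authors' annotation is not known), the median over 8 libraries was highest for Fbxo32 at 8.34 CPM per kb, followed by Chrnb1 (4.98), Trim63 (4.15), Chrna1 (3.47), Chrne (3.46), Mstn (2.38), Myog (1.68), Musk (1.55), Myod1 (1.18) and Chrnd (0.599). Chrna1 and Chrne, which differ in CPM, were thus at nearly the same level per length. In males the SD over libraries exceeded the mean for all of these genes but Fbxo32 (9.92 ± 3.34 CPM per kb), Mstn (3.71 ± 3.29) and Musk (2.51 ± 2.41; SD, n = 4), so neighbours in this order do not differ beyond the spread of their levels over libraries. Within libraries, Chrnb1 was above Trim63 in 7 of 8 and Myod1 above Chrnd in 7 of 8 (both are at 0 in female replicate 3), while Chrna1 was above Chrne in 4 of 8, and Mstn above Myog and Musk above Myod1 in 4 of 8 each. In male replicate 2, the library richest in muscle, Trim63 (26.3 CPM per kb), Chrnb1 (25.1) and Myog (21.2) stood above Fbxo32 (14.7).

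Since genes of this set moved together, the 250 bases before their start sites were read from RefSeq (GRCm38.p6) and searched for the E-box CANNTG, for its form CAGCTG, which is contained in CANNTG, and for the N-box CCGGAA, an Ets-factor motif known from genes active at the synapse, on both strands. Of the 10 genes, 7 matched an entry; Chrnd, Myod1 and Fbxo32 did not. An E-box was present in 7 of 7, against 66.2% of 32851 promoters, a CAGCTG in 4 of 7 (Chrna1, Chrne, Musk and Trim63), against 13% of promoters, and an N-box in 1 of 7 (Chrne), against 12%. Shown are those of Chrna1 and Chrne, whose proportion was steady, of Myog and Trim63, whose slopes lay near 1, and of Mstn, whose slope was shallow. Capitals mark E-boxes and, in Chrne, the N-box.
Chrna1, chr2:73580339-73580588, minus strand: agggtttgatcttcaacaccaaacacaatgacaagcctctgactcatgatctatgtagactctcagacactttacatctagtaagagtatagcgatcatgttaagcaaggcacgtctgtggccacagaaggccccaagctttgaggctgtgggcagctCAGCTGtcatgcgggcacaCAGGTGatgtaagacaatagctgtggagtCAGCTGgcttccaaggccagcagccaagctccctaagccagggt
Chrne, chr11:70619195-70619444, minus strand: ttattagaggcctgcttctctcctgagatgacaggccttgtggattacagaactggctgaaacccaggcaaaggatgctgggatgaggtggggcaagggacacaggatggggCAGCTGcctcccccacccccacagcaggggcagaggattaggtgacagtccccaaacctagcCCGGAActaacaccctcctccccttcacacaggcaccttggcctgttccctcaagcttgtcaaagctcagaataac
Myog, chr1:134289754-134290003, plus strand: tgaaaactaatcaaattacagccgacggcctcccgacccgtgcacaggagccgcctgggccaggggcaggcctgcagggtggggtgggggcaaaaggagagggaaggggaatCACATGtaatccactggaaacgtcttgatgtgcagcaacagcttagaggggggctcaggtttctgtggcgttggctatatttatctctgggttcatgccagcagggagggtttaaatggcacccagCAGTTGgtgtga
Trim63, chr4:134314870-134315119, plus strand: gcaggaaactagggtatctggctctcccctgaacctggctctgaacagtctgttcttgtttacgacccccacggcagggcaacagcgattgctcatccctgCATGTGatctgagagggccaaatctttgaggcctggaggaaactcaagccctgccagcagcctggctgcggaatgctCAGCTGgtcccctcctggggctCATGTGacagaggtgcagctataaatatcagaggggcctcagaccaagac
Mstn, chr1:53061390-53061639, plus strand: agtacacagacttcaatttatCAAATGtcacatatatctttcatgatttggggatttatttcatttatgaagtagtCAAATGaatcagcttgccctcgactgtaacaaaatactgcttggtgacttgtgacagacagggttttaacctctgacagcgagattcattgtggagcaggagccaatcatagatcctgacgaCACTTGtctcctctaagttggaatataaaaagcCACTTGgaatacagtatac
Chrna1 held 3 E-boxes in this window, 2 of them CAGCTG, and Mstn held 4, none of them CAGCTG. In Chrne the N-box began 76 bases and the E-box 138 bases before the start site. A match is a run of letters, not a bound site.

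Relative to Acta1, most of these genes had similar values in both sexes once female replicate 3 was set aside. Chrna1 had 18.0, 16.7, 23.0 and 18.7 counts per 1000 Acta1 counts in males and 21.2, 19.6 and 17.5 in female replicates 1, 2 and 4. Female replicate 3 had 122 per 1000, from 11 counts, with a 95% exact binomial interval of 58.9 to 229 that covers counting error only. Chrne had 6.66, 5.55, 7.19 and 7.87 per 1000 in males and 8.53, 7.12 and 6.39 in those 3 females. The ranges of both genes overlapped between the sexes, and the highest of the 7 libraries was 1.38 times the lowest for Chrna1 and 1.54 times for Chrne.

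Myod1 ran from 2.23 to 4.05 per 1000 Acta1 counts in the 7 libraries and Trim63 from 6.36 to 13.5. Myog spread most among the 8 genes whose slopes were called with all libraries. It had 2.14, 7.41, 1.63 and 5.24 per 1000 in males and 4.48, 6.92 and 4.72 in the 3 females. Fbxo32 ran from 24.0 to 329 per 1000 and Mstn from 5.11 to 25.6, with Fbxo32 lowest in male replicate 2 and Mstn in female replicate 1, the libraries richest in Acta1, and both highest in male replicate 4. In female replicate 3 Fbxo32 reached 11733 per 1000 and Mstn 689, while the 0 counts of Chrnd, Myog and Myod1 there allow up to 33.3 per 1000 and thus set no lower level than the other libraries.

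Musk was the exception among these genes. It had 7.95, 4.76, 7.56 and 5.90 counts per 1000 Acta1 counts in males and 4.66, 4.39 and 4.63 in female replicates 1, 2 and 4. These groups did not overlap, but the gap between male replicate 2 and female replicate 1 was smaller than the spread within either sex. Without female replicate 3 this held for 1 of the 10 genes and for 0.241% of all genes, and the exact test of 3 against 4 cannot go below p = 0.0571. That share covers mostly genes without a called slope on Acta1 and is no chance rate for genes that follow it. With female replicate 3, at 111 per 1000 from 10 counts, the sexes overlapped. The edgeR fit with Acta1 gave Musk a log2 fold change of -0.50 (SE 0.21, unadjusted p = 0.0433, adjusted p = 0.617) without it and -0.27 (SE 0.43, adjusted p = 0.915) with it, so the difference did not pass. Without that library 0 of the 10 genes were called in this fit, as were 0.141% of all genes.

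**Figure D4:**
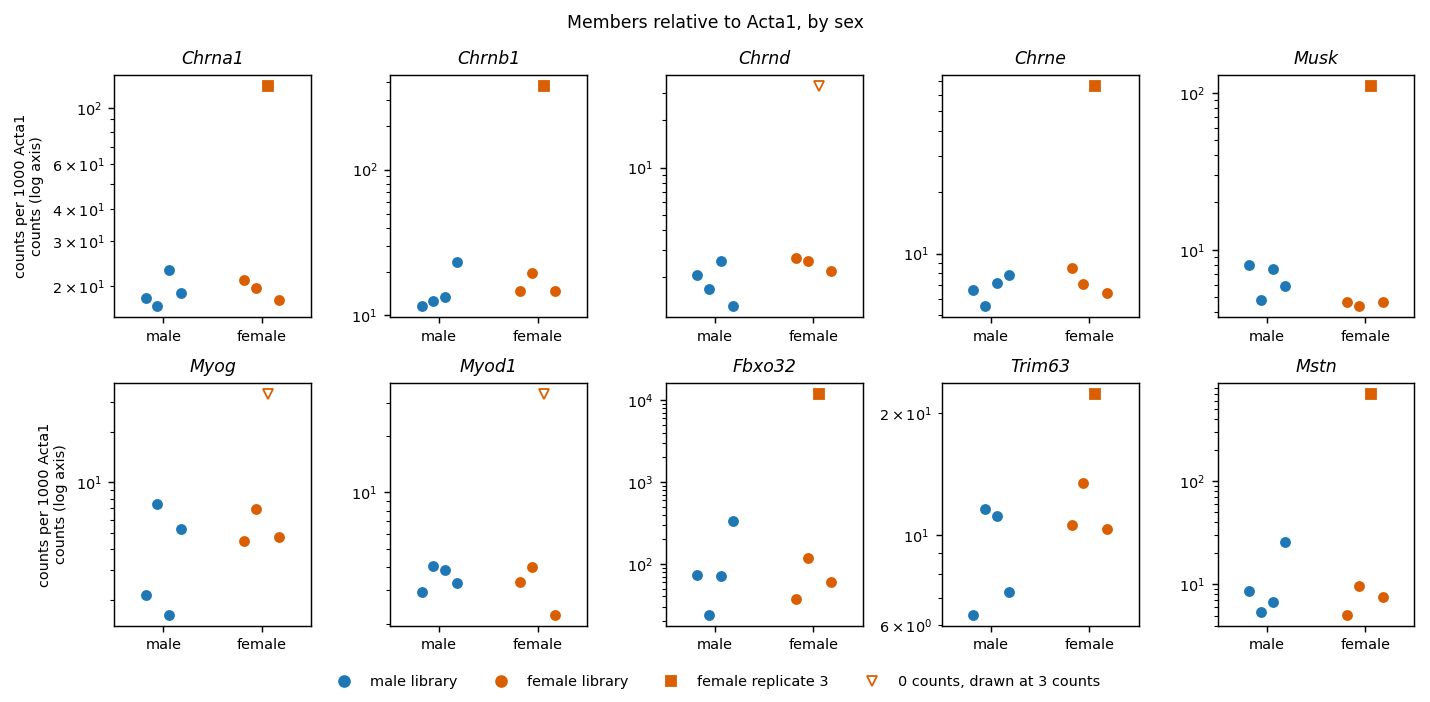
Counts of each gene per 1000 Acta1 counts (log axis) in the 4 male and 4 female libraries, 1 point per library, with female replicate 3 as a square and its counts of 0 as open triangles at the 33.3 per 1000 that 3 counts would give. Female replicate 3 lies above all other libraries wherever it has counts, and apart from it only Musk separates the sexes.

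Between the sexes none of the 10 genes was called. With sex as the sole term edgeR called 0, against 0.0947% of the 14790 genes tested, and 0 had an unadjusted p under 0.05, against 6.53% of all genes; DESeq2 (0.758% of all genes called) and limma-voom also called 0. All 10 log2 fold changes, female over male, lay below 0, with a median of -0.49 where that of all genes was 0.01. Acta1 itself had -0.61 (SE 1.50). Among the genes, Myod1 had -0.91 (SE 1.34), Myog -0.89 (SE 1.51), Musk -0.87 (SE 1.07), Trim63 -0.59 (SE 1.39) and Chrna1 -0.43 (SE 1.26), with an adjusted p of 0.999 for each. Only Fbxo32 had a small error, with 69.2 ± 23.3 CPM in males and 63.5 ± 23.2 CPM in females (SD, n = 4; log2 fold change -0.12, SE 0.29, edgeR adjusted p = 0.999). No gene had libraries of the sexes that did not overlap in CPM, as 4.72% of all genes did. The shared sign rested on single libraries: without male replicate 2 the log2 fold change of Myog was 1.83 and that of Trim63 0.99, and without female replicate 3 that of Chrna1 was -0.02.

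With Acta1 in the fit, the SEs shrank and the direction changed for 7 of the 10 genes. No gene was called (0.122% of all genes were), and 0 had an unadjusted p under 0.05, where 8.8% of all genes did. DESeq2 and limma-voom called 0 as well. The log2 fold change was 0.15 (SE 0.26) for Chrna1, 0.38 (SE 0.39) for Chrnb1, 0.32 (SE 0.26) for Chrnd and 0.30 (SE 0.29) for Chrne, and -0.27 (SE 0.43) for Musk. It was 0.43 (SE 0.51) for Myog and -0.19 (SE 0.24) for Myod1, 0.32 (SE 0.24) for Trim63, 0.06 (SE 0.21) for Fbxo32 and -0.04 (SE 0.41) for Mstn, with adjusted p from 0.755 to 0.991 in edgeR. Single libraries moved these values: without male replicate 2 that of Myog was 1.22 and that of Chrnb1 0.74, and without male replicate 4 that of Musk was -0.58. With Myh4, a fast myosin gene, in place of Acta1 the receptor genes, Myog, Fbxo32 and Trim63 all had values below 0. Myh4 itself stood at 8.11 CPM in male replicate 1 and at 180 CPM in male replicate 3, which had similar Acta1. Tested as plain ratios to Acta1, 0 of the 10 genes reached p under 0.05 (exact two-sided permutation test; the smallest p of 4 against 4 is 0.0286), where 0.156% of all genes did. The exact p was lowest for Chrnd at 0.0571 (adjusted p = 0.695 over all genes); female replicate 3 enters it with 0 counts of Chrnd plus the 0.5 added to every count.

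**Figure D5:**
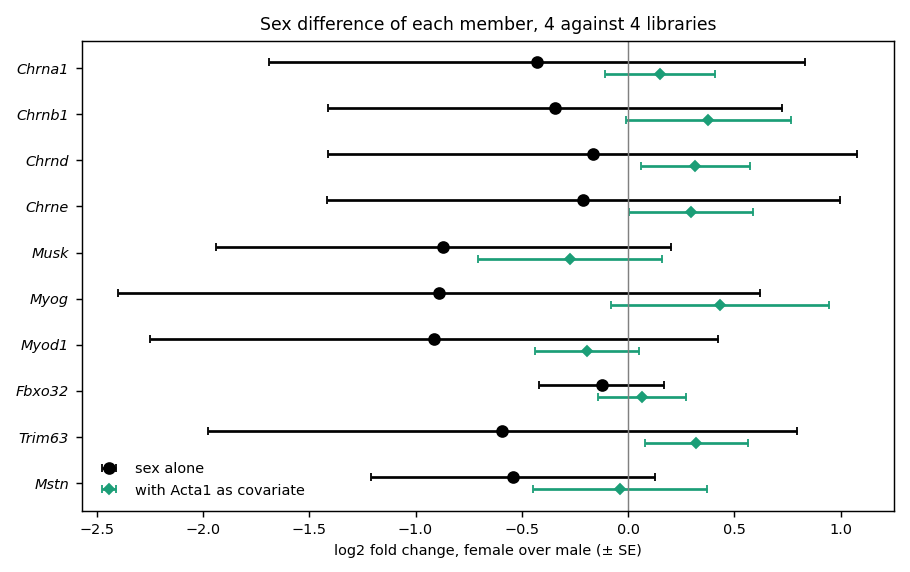
Log2 fold change of each gene, female over male, with its SE as bars, from the fit on sex alone (black circles) and with Acta1 as a covariate (green diamonds). All 10 estimates on sex alone lie below 0 with wide errors, and with Acta1 they lie between -0.27 and 0.43.

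Other genes of these pathways were taken from lists. Their counts of called slopes stand beside 2.85% of the 14789 genes tested with Acta1 in the fit. Of 17 tested genes of the synapse, 4 had called slopes above 0 in edgeR: the muscle sodium channel Scn4a (1.01, SE 0.04), Colq, which anchors acetylcholinesterase (0.89, SE 0.08), the Musk activator Dok7 (0.87, SE 0.08) and the receptor scaffold Rapsn (0.49, SE 0.09). Agrn and Lrp4, the nerve signal and its receptor, were not called, with slopes of -0.02 each (SE 0.01 and 0.03). Between the sexes 0 of the 17 were called, or had an unadjusted p under 0.05, and the smallest p belonged to Lrp4 (log2 fold change 0.25, SE 0.15) and Agrn (0.11, SE 0.09).

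Of 27 tested atrophy genes, 3 had called slopes above 0, all ligase genes of striated muscle: Fbxo40 (1.12, SE 0.05), Trim55 (1.0, SE 0.06) and Trim54 (0.99, SE 0.05). The share over all genes was 2.85%, and the median slope of this list was 0.03. None was called between the sexes by edgeR and 2 of 27 had an unadjusted p under 0.05, near the 6.53% of all genes: the transcription factor Foxo3, which induces both ligases in wasting muscle (log2 fold change -0.30, SE 0.09, adjusted p = 0.616), and the autophagy gene Gabarapl1 (-0.17, SE 0.07, adjusted p = 0.750).

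Of 17 tested muscle regulators, 7 had called slopes above 0, beside 2.85% of all genes. Leading these were Myf6, a close relative of Myod1 (1.02, SE 0.03), and Myf5, another one (0.87, SE 0.10). The muscle cadherin gene Cdh15 (0.85, SE 0.06) and the fusion gene Tmem8c (0.82, SE 0.14) followed. None was called between the sexes by edgeR and 2 of 17 had an unadjusted p under 0.05, beside 6.53% of all genes: the satellite cell factor Pax7 (0.84, SE 0.30, adjusted p = 0.674) and the inhibitor Id1 (-0.29, SE 0.11, adjusted p = 0.718). Of 15 myostatin pathway genes, 1 had a called slope, the myostatin-binding protein Wfikkn2 (0.38, SE 0.08), beside 2.85% of all genes. None of the 15 was called between the sexes. There 2 of 15 had an unadjusted p under 0.05, beside 6.53% of all genes: the receptor genes Tgfbr1 (0.31, SE 0.10, adjusted p = 0.650) and Acvr2a (0.28, SE 0.11, adjusted p = 0.718). Of 10 tested genes linked to denervation, 5 had called slopes, beside 2.85% of all genes. Among them were Ankrd1, a stress gene of striated muscle (1.61, SE 0.23), and the embryonic and perinatal myosin genes Myh3 (0.84, SE 0.06) and Myh8 (0.78, SE 0.06). Ankrd1 stood at 86.5 CPM in male replicate 2 and at no more than 8.48 CPM in any other library. None of the 10 was called between the sexes by edgeR. Of them 1, the cell cycle inhibitor Cdkn1a (-0.27, SE 0.11, adjusted p = 0.749), had an unadjusted p under 0.05, beside 6.53% of all genes. Counts on sex alone this small single out none of these lists. With Acta1 in the edgeR fit, the sex term had an unadjusted p under 0.05 for 0 of 17 synapse genes, 2 of 27 atrophy genes and 4 of 17 regulators. It did so for 3 of 15 myostatin genes and 4 of 10 denervation genes, beside 8.8% of all genes. None was called in that fit.

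The genes whose course over the 8 libraries was most like that of a member differed between members. Pearson's r of log2 CPM is given as a description; the points share female replicate 3, which lies far from the rest in Acta1. Among the genes closest to Chrna1 were Tmem182 and Ampd1, to Chrnd Apobec2 and Nctc1, and to Chrne Lrrn1, each with r = 0.999. Chrnb1 was closest to Kcnq5 and Rbm24, and Myo18b was among the closest to Trim63, each with r = 0.998. Myod1 was closest to Myf6 and Prkag3 (0.997 each), and Myog to Cyb5d2 (0.996) and Fabp3 (0.978). Musk was closest to Nos1 (0.991), which encodes the nitric oxide synthase of muscle and nerve, and Cap2 (0.987). For Mstn these were Zfp106 and Sel1l3 (0.994 each), and Ppm1l (0.989) was among the closest to Fbxo32. With Acta1 the r of Fbxo32 was 0.757 and that of Mstn 0.845, where those of the other 8 genes ran from 0.924 to 0.994.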

How the data were processed

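The authors deposited 1 table of whole-number read counts per gene symbol for each library, with no normalization. The submitters' processing notes name the tools TopHat2, HTSeq and bcl2fastq and the build mm9, but the sources used here give no versions, annotation or strand setting. Summary lines that name no gene were left out; the share of uniquely placed reads outside any gene was 18.0 to 21.1%. Per the file's summary lines, alignments that were not unique stayed outside the gene counts, so genes with near copies, such as actins and myosins, are uncertain.

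Female was compared with male in edgeR 4.0.16 (R 4.3.3; filterByExpr, TMM, robust quasi-likelihood test, Benjamini-Hochberg over all genes tested, calls at an adjusted p under 0.05), with sex alone and with log2 CPM of Acta1 (0.5 counts added) as a covariate. SEs are the log2 value over the square root of F. Ratios to Acta1 were tested by exact permutation. The fits were tested on simulated data. Alternatives were other size factors, filters, DESeq2 1.42.0, limma-voom (limma 3.58.1), Ckm or Myh4 as muscle measure, and each library left out; the test of a slope against 1 and the fit on sex alone without the 2 libraries lowest in Acta1 were added after seeing the data. The labels give 4 males and 4 females; same-sex libraries differed beyond sampling noise (chi-square per degree of freedom at least 13.2). The genes, lists and tests were chosen with earlier results of these data known. Named were all 10 genes, the 2 genes of smallest p per list and up to 4 with called slopes, and the genes closest in course. Other names were chosen after their values were seen, among them Chrng and the genes of the closing part. Of the genes this rule picks, 4 are not reported here.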

Additional observations from a re-analysis of the deposited data

Results flagged for a closer look

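In 42 sets of 4 libraries of 1 sex (log2 CPM and log2 ratio to Acta1), 5 had a library far from the other 3, where chance gives about 1 in 20 sets. All 5 were ratios to Acta1 in females with female replicate 3 highest, and all rest on its 90 Acta1 counts. On the log2 scale the ratio of Chrna1 was -2.98 there and -5.83 to -5.56 in the other females, that of Chrnb1 -1.39 against -6.10 to -5.68, and that of Chrne -3.80 against -7.29 to -6.87. Musk stood at -3.11 against -7.82 to -7.74, and Mstn at -0.53 against -7.61 to -6.69.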

How the results depend on the processing

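The number of the 10 genes called between the sexes was 0 under every alternative run, with sex alone, with Acta1 or as ratios. With 1 library left out the exact permutation test of ratios cannot go below p = 0.0571. With the replicate number as a block, the exact test of ratios flips the signs of 4 pairs and cannot go below p = 0.125. The 0 of the ratio test says nothing in either case. The number of called slopes was 7 to 10 with 1 library left out and 6 with the replicate number as a block, where Chrnb1 (0.55, adjusted p = 0.116) and Musk (0.63, adjusted p = 0.101) lost their calls. DESeq2, Myh4 as muscle measure and the fit without female replicate 3 and male replicate 4 called all 10. The number of slopes that differed from 1 was 3 to 6 with 1 library left out, 10 with Myh4, and 2 without female replicate 3 and male replicate 4; the cause was not tested.

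No likeness by replicate number was seen: same-numbered males and females had correlations of their deviations from -0.29 to -0.09. The highest were 0.76 for male replicate 2 with female replicate 1 and 0.69 for male replicate 4 with female replicate 3. Whether the numbers mark a shared batch was not tested. With the replicate block the edgeR sex tests called 0.

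Directions between the sexes were not stable for many of these genes. With 1 library left out, the log2 fold change on sex alone ran from -1.69 to 0.66 for Chrna1, -1.32 to 0.89 for Chrnb1, -1.41 to 0.84 for Chrnd, -1.56 to 0.84 for Chrne, -2.18 to 0.55 for Myod1, -1.83 to 1.83 for Myog, -0.41 to 0.11 for Fbxo32, -1.65 to 0.99 for Trim63 and -1.10 to 0.27 for Mstn. Musk alone kept its sign, at -1.95 to -0.019. With Acta1 in the fit it ran from 0.12 to 1.22 for Myog, 0.17 to 0.74 for Chrnb1, 0.10 to 0.48 for Chrnd, 0.17 to 0.51 for Trim63 and -0.58 to -0.07 for Musk, which kept their sign, and from -0.046 to 0.26 for Chrna1, -0.033 to 0.45 for Chrne, -0.17 to 0.21 for Fbxo32, -0.27 to 0.31 for Mstn and -0.41 to 0.0039 for Myod1. As ratios the difference ran from -0.33 to 2.43 for Fbxo32, -0.40 to 1.96 for Mstn, -0.50 to 1.07 for Musk and -0.19 to 0.24 for Myod1. It kept its sign for Chrna1 (0.029 to 0.98), Chrnb1 (0.13 to 1.70), Chrnd (0.37 to 0.81), Chrne (0.10 to 1.27), Myog (0.27 to 0.99) and Trim63 (0.37 to 0.84). With Myh4 in the fit it was -0.69 for Chrna1, -0.32 for Chrnb1, -0.34 for Chrnd, -0.50 for Chrne, -0.42 for Myog, -0.10 for Fbxo32 and -0.44 for Trim63. As ratios to Myh4 it was -0.66 for Chrna1, -0.093 for Chrnb1, -0.71 for Chrnd, -0.44 for Chrne, -0.70 for Musk, -0.74 for Myog, -1.35 for Myod1, -0.68 for Trim63 and -0.12 for Mstn. The cause was not tested.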

Other observations

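Relative to Acta1, 4 genes are described here library by library or by range, and Colq and Tmem8c are named after them. They were chosen after their values were seen, because the sexes did not overlap in this ratio. That held for 0.156% of all genes, most of which had no called slope on Acta1. Of the genes named here 1, Actc1, passed the test with Acta1 as a covariate. Per 1000 Acta1 counts, Myh3, the embryonic myosin gene, had 8.25, 3.24, 7.01 and 5.57 counts in males and 18.1, 17.1, 44.4 and 21.4 in females, replicates 1 to 4. Actc1, the actin gene of heart and of immature skeletal fibres, had 3.91, 1.99, 4.53 and 6.23 in males and 9.66, 11.9, 66.7 and 11.2 in females. Female replicate 3 had only 4 counts of Myh3 and 6 of Actc1. In edgeR with Acta1 as a covariate the log2 fold change of Actc1, female over male, was 1.62 (SE 0.18, adjusted p = 0.0168), and without female replicate 3 it was 1.61 (SE 0.19, adjusted p = 0.0312). That of Myh3 was 1.71 (SE 0.26, adjusted p = 0.0875), and without that library 1.71 (SE 0.27, adjusted p = 0.126), so it did not pass.

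Myh8, the perinatal myosin gene, had 1.81 to 2.95 per 1000 Acta1 counts in males and 5.42, 6.43 and 5.88 in female replicates 1, 2 and 4. Cdh15 had 1.96 to 2.72 in males and 3.93, 4.19 and 3.52 in those females. Female replicate 3 had only 4 counts of Myh8 and 2 of Cdh15. In edgeR with Acta1 and all 8 libraries the log2 fold change was 1.31 for Myh8 (SE 0.28, adjusted p = 0.195). That of Cdh15 was 0.82 (SE 0.25, adjusted p = 0.437). Neither passed. Among other muscle genes looked at in the same way, the ratios of Pax7, Ncam1 and Chrng overlapped between the sexes. Those of Colq and Tmem8c did not. Female replicate 3 had only 2 counts of Colq and 0 of Tmem8c, so Tmem8c rests there on the 0.5 added to every count. The log2 fold change in edgeR with Acta1 and all 8 libraries was 0.61 for Colq (SE 0.34, adjusted p = 0.642). That of Tmem8c was 1.83 (SE 0.52, adjusted p = 0.413). Without female replicate 3 these were 0.57 for Colq (SE 0.22, adjusted p = 0.611) and 1.85 for Tmem8c (SE 0.50, adjusted p = 0.417). Neither of these 2 genes passed with or without it. Acta1 and Actc1 are near copies, as are the myosin genes, and how uniquely placed reads fell between such copies was not tested.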
